A study of Mus musculus with 89 samples.

Results

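Goblet crypt clumps are small groups of still attached cells of the mouse jejunum in which mucus-secreting goblet cell transcripts were abundant. They are named crypt clumps by a low share of apolipoprotein UMIs alone, and their place in the tissue was not measured. They were chosen by measured values, in a table in which every well of a sorting plate holds 1 clump. The values were the summed share of 6 goblet markers (Muc2, Fcgbp, Zg16, Clca1, Tff3 and Spink4) in the unique molecular identifiers (UMIs, counted mRNA molecules) of the well, the share of apolipoprotein UMIs and the Lyz1 count. A well was a member at a share of at least 0.5% with at most 2 UMIs of the Paneth cell gene Lyz1. Of 34012 wells in the series, 6004 clump wells of mice 1 to 5 passed the limits on depth (over 500 UMIs, at least 200 genes, at most 30% mitochondrial UMIs), 3342 of these were crypt-like (Apoa1, Apoa4 and Apob together under 0.5% of UMIs) and 481 were members. The other end of the same scale, 1409 crypt-like wells with a marker share under 0.05%, served as the goblet-poor group.

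All groups came from male C57BL/6 mice on regular chow, the clumps at 3 months, and the labels name no treatment, transgene or deletion. The clumps were made by a short EDTA treatment that leaves neighbouring cells attached, stained for DNA and sorted either as pairs (4n, 27 plates, mice 1 to 5) or as larger clumps (h4n, 14 plates, mice 1, 4 and 5). Single cells came from mice labelled 1 to 4 (44 plates), and the labels do not say whether a number marks the same animal in clumps and cells. Of single-cell mouse 2, 3 plates carry an age of 4 months and the others 3 months, so it may be more than 1 animal. A clump's transcripts are the sum over all its cells, so a goblet crypt clump holds goblet cell RNA together with that of its neighbours, and in such a sum fewer cells of a type and less RNA per cell cannot be told apart.

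Goblet cells are secretory cells that arise in the crypt when Notch signalling is low and the factor Atoh1 is active. They fold and cross-link the large gel-forming mucin Muc2 in the endoplasmic reticulum (ER), load it with O-linked sugars in the Golgi and store it in granules that are released to the lumen together with Tff3, Zg16, Clca1 and Fcgbp. In the crypt they sit among stem cells, dividing progenitors and Paneth cells.

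The members held 20, 24, 52, 68 and 317 wells in mice 2, 5, 1, 3 and 4, and 127 of them were pairs and 354 larger clumps, spread over 40 of 41 plates. The marker share chose them and is given here as a description without a test. It had a median of 0.925% (quartiles 0.676% and 1.74%) and reached 53.0%, and 13 members lay at 20% or more. Just inside the limit the lowest member had 0.5001%, just outside it the highest other well had 0.498%, and 37 members lay below 0.55%. The median member carried 56 marker UMIs (range 3 to 1263), 215 members had UMIs of all 6 markers and 4 members had UMIs of 1 marker alone. Another 109 crypt-like wells reached the marker share but had over 2 Lyz1 UMIs, 92 of them from mouse 4. The goblet-poor group was made up otherwise, of 690 pairs and 719 larger clumps. In mouse 4 pairs were 22 of 317 members and 198 of 611 goblet-poor wells. The goblet part of the label held in the sense that several defining goblet genes that the rule did not use, described below, were high in the members of each mouse. The crypt part rests on the apolipoprotein limit.

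**Figure D1:**
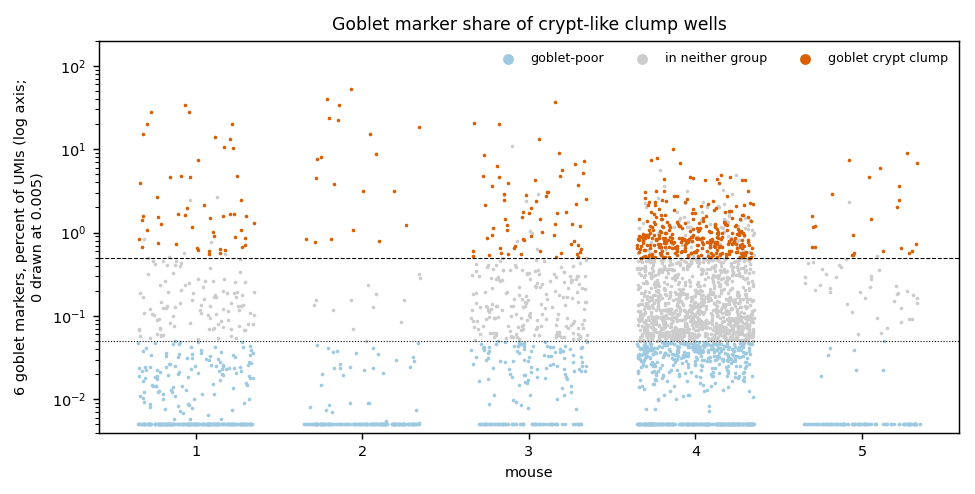
Share of the 6 goblet markers in the UMIs of each of 3342 crypt-like clump wells (vertical log axis, wells with no marker UMI drawn at 0.005) by mouse, coloured by group, with the limits of 0.5% (dashed) and 0.05% (dotted). Mouse 4 gave the most members, and the highest shares lay in mice 1, 2 and 3. Grey points above the dashed line are wells with over 2 Lyz1 UMIs.

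Tff3, a trefoil peptide, and Zg16, a lectin that binds bacteria, made up most of the marker RNA of the members. Tff3 gave 34.98% ± 3.51 of the marker UMIs and Zg16 35.1% ± 6.40 (SD, n = 5 mice). Spink4 followed with 11.6% ± 4.16, Fcgbp, a mucus protein, with 9.92% ± 2.96, Muc2 with 4.58% ± 1.48 and Clca1 with 3.78% ± 1.10. Tff3 was also the marker most often seen, with a UMI in 96.0% of members, against 57.8% for Clca1 and 70.7% for Muc2. The summed marker share was 1.12%, 1.45%, 2.56%, 3.23% and 6.30% in the members of mice 4, 5, 1, 3 and 2. In the goblet-poor wells it was between 0.00552% and 0.0302%. As a measure of free RNA, 160 wells of the 4 emptiest plate positions held a median of 77.5 UMIs, of which 0.185% in sum were marker UMIs, and 31.25% of these wells had one.

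Members had a median of 3676 UMIs and goblet-poor wells one of 3232. By mouse the medians of members were 2849, 2530.5, 2761.5, 5181 and 1426.5 in mice 1 to 5, against 3433.5, 2265, 4608, 5039 and 1215.5 in goblet-poor wells, so that members were shallower in mice 1 and 3. The summed UMIs of members ran from 64919 to 2541559. Mouse 4 thus held most of the members' RNA, and every test below was made on 1 sum per mouse and group so that each mouse counted once. Shares of wells with a UMI, and UMI totals, folds and CPM given over all mice, pool the wells, so mouse 4 weighs most in them. Mitochondrial UMIs had a median share of 3.20% to 6.28% in the members of mice 1 to 4 and of 20.0% in mouse 5, where the goblet-poor wells had 21.3%. In mouse 4 the members had 4.43% and the goblet-poor wells 10.5%, and the part of this gap in the results was not tested. Well barcodes mark plate positions and recur between plates (142 of them in members of 2 or more plates), and 0 wells occurred more than once by full name.

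The share of crypt-like wells that were members is set by the rule and is given as a description, with no test. Among larger clumps it was 11.1%, 15.0% and 17.3% in mice 1, 5 and 4. Among pairs it was 6.90%, 8.70%, 8.89%, 9.74% and 15.7% in mice 4, 5, 2, 1 and 3. The means were 14.5% ± 3.09 (SD, n = 3) and 9.99% ± 3.36 (n = 5), the ranges overlap, and the share was higher in larger clumps in 3 of the 3 mice with both kinds. The larger clumps also had more UMIs per member (medians of 5177 and 1539).

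Against the goblet-poor clumps, 19 of the 5498 genes tested were higher in goblet crypt clumps and 0 were lower (edgeR quasi-likelihood test on UMI sums per mouse, Benjamini-Hochberg adjusted p under 0.05, background 0.346% of genes called). All 19 were higher in 5 of 5 mice, 17 had 5 goblet sums that lay above all 5 goblet-poor sums (0.618% of all genes tested did so, and 0.0909% lay apart in the lower direction), and DESeq2 called all 19 among its 26. At an unadjusted p under 0.05 there were 98 genes in both directions. The 10 genes of the rule were left out of the table and of the library totals. Both groups of a number come from the same labelled mouse, and with the mouse as a replicate block 67 genes were higher (1.22%) and 3 lower (0.0546%, 1.27% called in all), among them all 19. Without mouse 1, mouse 3 or mouse 5 the fit without the block called 11, 11 and 46 genes. With wells of 1000 to 4000 UMIs alone, 7 of 1487 genes were called. Levels below are CPM, the UMIs of a gene scaled to the UMI sum of its mouse and group without the rule genes, and differences are edgeR log2 values.

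**Figure D2:**
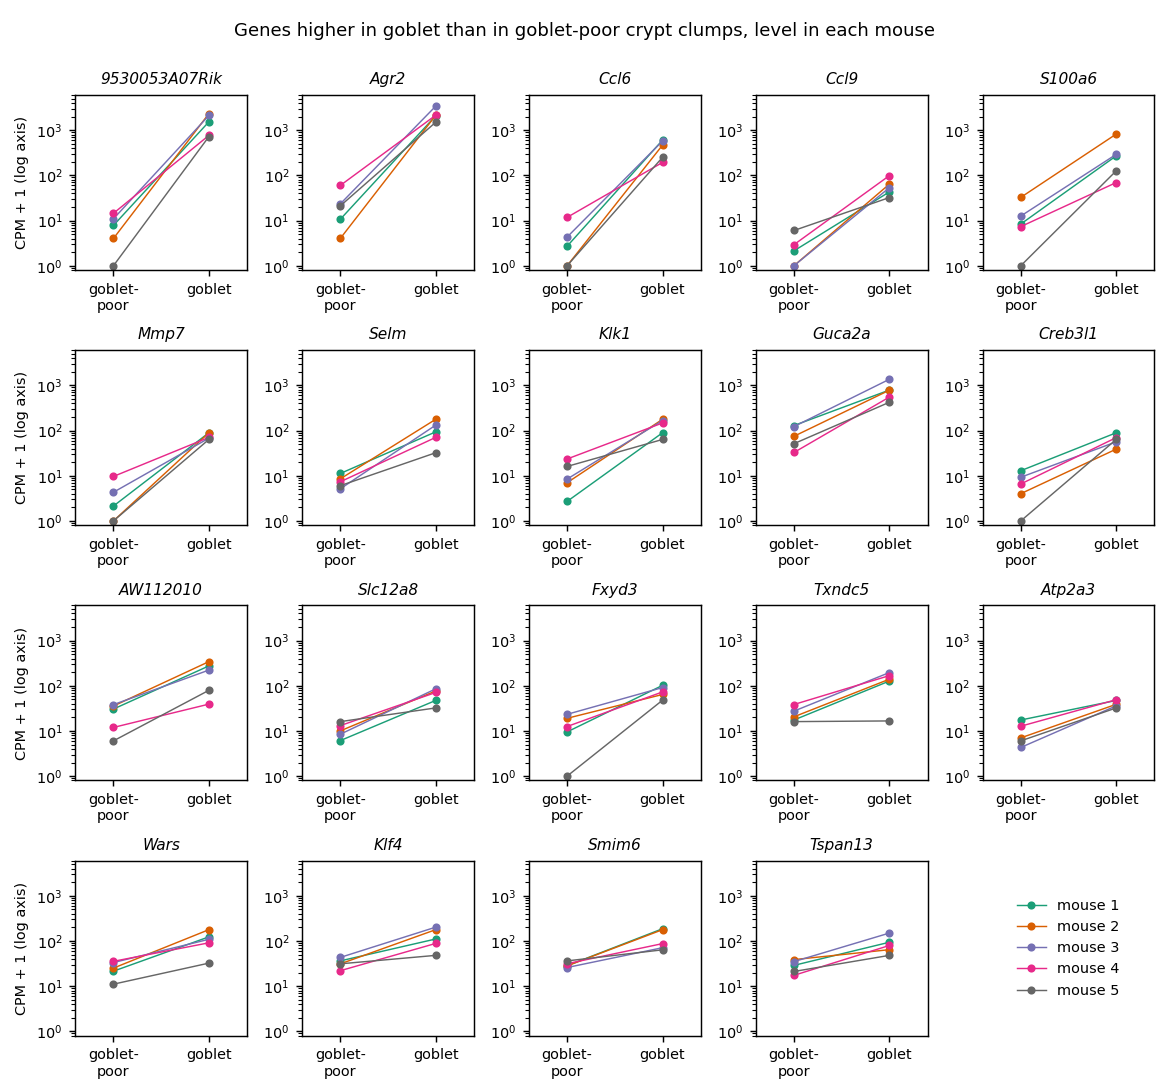
Level of the 19 genes called in goblet-poor and goblet crypt clumps, as CPM + 1 on a log axis, with 1 line per mouse (n = 5). Every line rises from left to right; for Txndc5 in mouse 5 the rise was from 15.1 to 15.7 CPM.

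Of 9 tested genes on the list of goblet secreted proteins other than the markers, 5 rose (0.346% of all genes tested did). With the replicate block 6 rose (1.22% of all genes tested). The median log2 difference of the list was 3.27 against -0.025 over all genes tested. The list also held Agr2, an ER isomerase, and Lrrc26, a channel subunit. Agr2, the ER disulfide isomerase that mucin maturation requires (chr12:35992907-36004087, plus strand, GRCm38), had 2086, 2135, 3412, 2148 and 1503 CPM in the goblet clumps of mice 1 to 5. In the goblet-poor clumps it had 9.65, 3.01, 22.3, 58.8 and 20.1 CPM, far below every goblet value. The difference was 6.49 ± 0.59 (SE, adjusted p = 3.84e-05). A UMI of Agr2 was found in 79.4% of members and 16.2% of goblet-poor wells, and after thinning every well to 500 UMIs in 49.3% and 1.63%.

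The largest difference among the 5498 genes past the filter on low counts was that of 9530053A07Rik (chr7:28129466-28164811, plus strand). It is a protein-coding gene that RefSeq also lists under the name FCGBP. It had 1534, 2324, 2118, 767 and 720 CPM in goblet clumps of mice 1 to 5 and 6.81, 3.01, 9.93, 13.5 and 0 CPM in goblet-poor ones. The groups did not overlap, with a difference of 7.47 ± 0.50 (adjusted p = 1.13e-06). Its sequence may share reads with the marker Fcgbp, so its level is uncertain as a measure independent of the rule.

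The chemokine Ccl6 had between 193 and 603 CPM in goblet clumps and between 0 and 10.8 CPM in goblet-poor ones (6.39 ± 0.61, adjusted p = 4.21e-05). Its neighbour on chromosome 11, Ccl9, was lower in level, with 31.3 to 97.9 CPM against 0 to 5.03 CPM (5.47 ± 0.55, adjusted p = 6.31e-05). Guca2a encodes guanylin, a peptide that drives fluid secretion through guanylate cyclase C. It had 788, 783, 1366, 551 and 423 CPM in goblet clumps of mice 1 to 5 and 128, 73.8, 122, 31.7 and 50.3 CPM in goblet-poor ones, so the goblet-poor wells also carried it, at a lower level in each mouse (3.27 ± 0.37, adjusted p = 0.000201). Klk1, a tissue kallikrein, had 62.6 to 177 CPM against 1.70 to 22.5 CPM (3.55 ± 0.54, adjusted p = 0.00332), and it lost the call without mouse 3 or among larger clumps alone. Lrrc26, a channel subunit, had 21.1 to 75.8 CPM against 6.15 to 15.1 CPM and passed with the replicate block (adjusted p = 0.000156, without it 0.348).

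Of the goblet transcription factors, 9 of 18 had enough counts to be tested and 2 rose (0.346% of all genes tested did). Creb3l1, an ER-bound factor released by ER stress, had 88.5, 37.9, 55.4, 68.9 and 62.6 CPM in goblet clumps and 11.9, 3.01, 8.28, 5.58 and 0 CPM in goblet-poor ones (3.22 ± 0.39, adjusted p = 0.00045). Klf4, a factor needed for goblet cell differentiation, had 110, 177, 201, 87.2 and 47.0 CPM against 35.2, 30.1, 42.2, 21.0 and 30.2 CPM (1.98 ± 0.33, adjusted p = 0.00886). Both groups stayed apart for both genes, and Klf4 lost its call without mouse 1, 2 or 3 and among larger clumps alone. Xbp1, the factor of the unfolded protein response, had 134 to 219 CPM against 104 to 206 CPM, with the goblet value above the goblet-poor value in 5 of 5 mice but overlapping groups (0.36 ± 0.34, adjusted p = 1.0). Sox9 had 0 to 34.2 CPM and 9.03 to 41.7 CPM (-0.0063 ± 0.47), and its sign turned to plus under 3 of the alternatives.

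The factors that specify the lineage were too sparse for the filter on low counts. Spdef had 12, 8, 25, 73 and 1 UMIs in the goblet clumps of mice 1 to 5 and 0, 0, 0, 6 and 0 UMIs in the goblet-poor clumps, whose sums are larger. That is 36.8 and 0.664 CPM over all mice, and without the filter the difference was 6.08 ± 0.64 (edgeR, adjusted p = 3.59e-07 among 21430 genes, at most 0.0169 over the 4 settings that tested it). Atoh1 had 7, 2, 12, 63 and 1 UMIs against 0, 1, 3, 10 and 1 UMIs, or 26.3 and 1.66 CPM (3.85 ± 0.60, adjusted p = 0.000294, and up to 0.124 over 4 settings). Creb3l4, a relative of Creb3l1, had 71 UMIs against 8 (4.64 ± 0.69, adjusted p = 0.000157). Foxa3 had 106 against 60 UMIs (2.91 ± 0.60, adjusted p = 0.0152) and did not pass in the other setting that tested it (adjusted p = 0.167). Without the filter 61 of 21430 genes were higher and 0 lower (0.285% called), and the added 42 genes were all among those that the filter had left out.

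Genes of the secretory granule appeared in the same low range. With the filter 8 of 30 granule and exocytosis genes were tested and 0 passed in edgeR without the block. With the replicate block 3 rose: Mlph (melanophilin, a Rab27 effector) with 15.7 to 126 CPM against 7.95 to 22.3 CPM (1.61 ± 0.30, adjusted p = 0.000404), Rab3d (a granule GTPase) with 0 to 58.3 CPM against 5.03 to 22.6 CPM (1.73 ± 0.30, adjusted p = 0.000114) and Scin, an actin-severing protein. Over all genes tested, 1.22% rose with the block. Without the filter 9 of the list were higher, against 0.285% of all 21430 genes. Rep15, a partner of Rab15, had 10, 6, 29, 137 and 1 UMIs in goblet clumps and 1, 0, 1, 3 and 0 UMIs in goblet-poor clumps (6.33 ± 0.56, adjusted p = 1.2e-08, at most 0.00309 over 6 settings). Capn9, a calpain of the digestive tract, had 10, 6, 19, 57 and 1 UMIs against 0 in each mouse, at least 86.6-fold higher in goblet clumps when the goblet-poor wells are set to a floor of 3 counts over the group. Bcas1 had 101 against 7 UMIs and Rab27b 89 against 17 UMIs. Nlrp6, an inflammasome sensor reported in goblet cells, had 31.3 to 189 CPM in goblet clumps against 90.5 to 277 CPM, lower in 5 of 5 mice, and did not pass (-0.43 ± 0.29, adjusted p = 1.0).

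**Figure D3:**
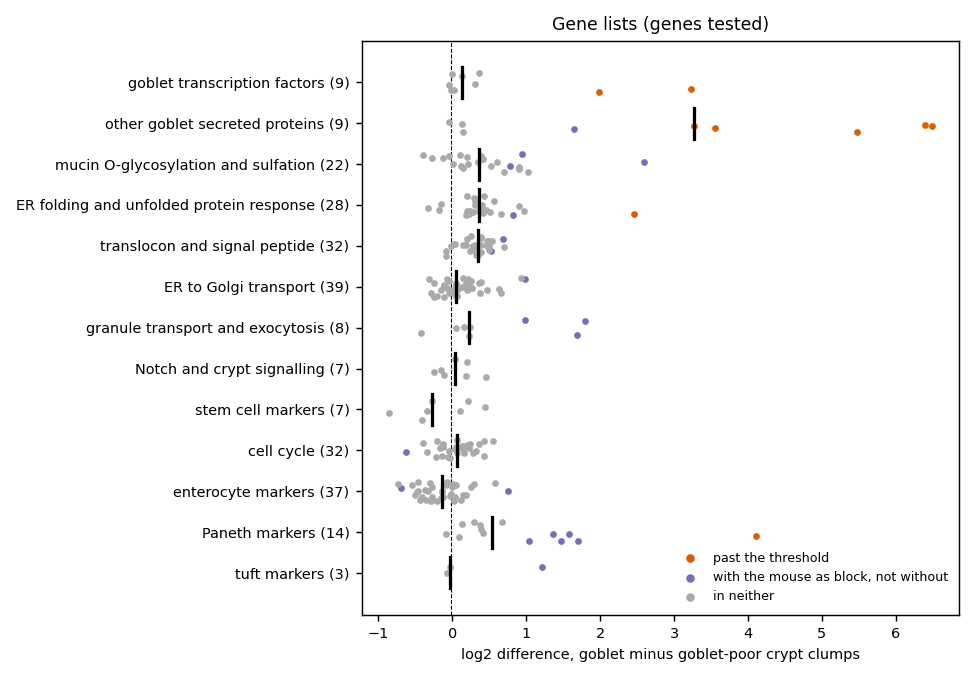
Log2 difference between goblet and goblet-poor crypt clumps for each tested gene of the lists (number tested in brackets, lists with 3 or more), with the list's median as a black bar and the median over all 5498 genes as a dashed line. Orange genes passed the threshold, violet genes passed with the mouse as a replicate block and not in the same fit without it.

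For the sugars of mucin, 22 of 46 listed genes were tested and 0 passed in edgeR without the block, with 18 of the 22 above 0 (45.9% of all genes tested) and a median of 0.37. Gcnt3, which starts the core branches of mucin sugars, had 63.2, 37.9, 93.2, 36.2 and 47.0 CPM in goblet clumps of mice 1 to 5 against 0, 19.6, 19.04, 5.0 and 10.1 CPM. The groups did not overlap (2.59 ± 0.68, adjusted p = 0.315), and with the replicate block the gene passed (2.76 ± 0.35, adjusted p = 1.05e-07). Tsta3, which makes GDP-fucose, had 109 to 152 CPM against 20.1 to 98.2 CPM (adjusted p = 0.0267 with the block), and C1galt1, the core 1 galactosyltransferase, had 21.1 to 69.9 CPM against 8.27 to 34.8 CPM (adjusted p = 0.0195 with the block). Galnt7, which adds the first sugar, had 28.3 to 93.2 CPM against 15.96 to 38.9 CPM and did not pass in either (adjusted p = 0.0578 with the block).

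The ER folding list, which left out the isomerase Agr2, had a smaller median log2 difference than the list of secreted proteins. Of the 45 ER folding genes listed, 28 were tested and 25 of these were above 0 (45.9% of all genes tested were), with a median log2 difference of 0.36. Txndc5, a disulfide isomerase, rose, with 126, 139, 195, 167 and 15.7 CPM against 16.5, 19.6, 26.5, 37.5 and 15.1 CPM in mice 1 to 5 (2.46 ± 0.37, adjusted p = 0.00332). In mouse 5 the values were nearly equal, and the call was lost without mouse 1 or 3 and among larger clumps alone. Pdia6, another isomerase, had 47.0 to 262 CPM against 43.7 to 140 CPM and passed with the replicate block (0.79 ± 0.17, adjusted p = 0.00298). The most abundant chaperones did not pass: Hspa5 (BiP) was at 0.23 ± 0.30 and higher in 3 of 5 mice, Calr at 0.40 ± 0.26 and higher in 5 of 5. Ern2, the goblet cell form of the sensor IRE1, had 61 UMIs in goblet and 9 in goblet-poor clumps and was called without the filter (4.00 ± 0.72, adjusted p = 0.0026, and 0.00348 in the other setting that tested it). Of the called genes in no list, Selm, a selenoprotein of the ER, had 31.3 to 177 CPM against 4.14 to 10.2 CPM (3.83 ± 0.39, adjusted p = 7.56e-05). Atp2a3, a calcium pump of the ER, had 31.3 to 48.2 CPM against 3.31 to 16.5 CPM (2.08 ± 0.40, adjusted p = 0.0299, passing in 8 of 15 settings). Wars, the tryptophan tRNA synthetase, had 31.3 to 177 CPM against 10.1 to 34.4 CPM (2.00 ± 0.33, adjusted p = 0.00761). Wars lost its call without mouse 1, 2 or 3 and among larger clumps alone.

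As background, many ER chaperone promoters hold the ER stress element, CCAAT and CCACG set 9 bases apart, bound by Atf6 and Xbp1 with partners. The element was searched on both strands in RefSeq promoters (250 bases before to 50 after the start, GRCm38.p6). The element was present in the promoters of 37 of 27025 genes (0.137%), and of the ER folding list 39 genes matched a promoter and 10 held it. Of the 19 called genes 17 matched and 0 held it, Txndc5 and Agr2 among them, while Pdia6 held it. The 8 tested list genes with the element had a median log2 difference of 0.38 and the 18 without it 0.35. Shown are a chaperone that did not pass (Hspa5, chr2:34771840-34772139, plus strand), the isomerase that passed with the block (Pdia6, chr12:17266339-17266638, plus strand) and the highest called secretory gene (Agr2, chr12:35992675-35992974, plus strand), 5′ to 3′ with the element in capitals.
Hspa5: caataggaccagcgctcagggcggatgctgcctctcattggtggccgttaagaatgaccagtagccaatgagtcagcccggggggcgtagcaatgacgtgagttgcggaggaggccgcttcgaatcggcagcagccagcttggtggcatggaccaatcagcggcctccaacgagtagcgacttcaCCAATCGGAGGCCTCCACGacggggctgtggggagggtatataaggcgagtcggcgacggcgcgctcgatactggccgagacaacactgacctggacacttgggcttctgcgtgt
Pdia6: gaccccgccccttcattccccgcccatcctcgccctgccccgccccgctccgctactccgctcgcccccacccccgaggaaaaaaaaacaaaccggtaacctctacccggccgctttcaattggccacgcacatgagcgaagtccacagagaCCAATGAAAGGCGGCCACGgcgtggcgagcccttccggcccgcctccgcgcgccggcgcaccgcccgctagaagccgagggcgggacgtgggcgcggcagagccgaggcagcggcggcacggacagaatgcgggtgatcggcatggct
Agr2: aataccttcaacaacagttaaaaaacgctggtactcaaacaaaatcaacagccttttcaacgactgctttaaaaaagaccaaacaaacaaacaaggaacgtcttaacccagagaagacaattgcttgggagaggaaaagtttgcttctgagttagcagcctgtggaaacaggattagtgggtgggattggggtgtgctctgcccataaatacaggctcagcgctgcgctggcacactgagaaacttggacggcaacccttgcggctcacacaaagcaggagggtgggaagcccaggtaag
A match is a description of letters in this window and not of binding, and no relation of the element to the differences was tested.

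Genes for entry into the ER had small differences, most of them above 0. Of 32 tested genes of the translocon, the signal peptidase and the N-glycan transferase, 29 were above 0 and 12 were higher in 5 of 5 mice (37.5%, against 4.46% of all genes tested, while 3.62% were lower in all 5), with a median of 0.34. In edgeR 0 passed without the block. With the replicate block Sec11c, a signal peptidase subunit, passed with 101 to 181 CPM against 73.3 to 113 CPM (0.64 ± 0.16, adjusted p = 0.0162), as did Sec61b, a subunit of the translocation channel, with 157 to 443 CPM against 156 to 293 CPM (0.54 ± 0.14, adjusted p = 0.0363). Between ER and Golgi the median of 39 tested genes was 0.055 and 25 were above 0. Tmed3, a cargo receptor, passed with the block with 25.3 to 69.9 CPM against 16.6 to 35.2 CPM (0.96 ± 0.24, adjusted p = 0.02).

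The other genes called were S100a6, a calcium-binding protein, with 270, 821, 291, 68.5 and 125 CPM against 7.38, 31.6, 11.6, 6.35 and 0 CPM in mice 1 to 5 (4.75 ± 0.69, adjusted p = 0.00274), and the long noncoding RNA AW112010, with 274, 341, 221, 38.2 and 78.3 CPM against 29.5, 34.6, 37.2, 11.0 and 5.03 CPM (2.93 ± 0.54, adjusted p = 0.0219, lost without mouse 1, 2, 3 or 5 and among larger clumps alone). For both, mouse 2 had the highest goblet value and mouse 4 the lowest. Slc12a8, a solute carrier, had 31.3 to 84.5 CPM against 5.11 to 15.1 CPM (2.80 ± 0.38). Fxyd3, a regulator of the sodium pump, had 47.0 to 101 CPM against 0 to 22.3 CPM (2.56 ± 0.37). The small membrane proteins Smim6 and Tspan13 had log2 differences of 1.98 ± 0.35 and 1.74 ± 0.31. Smim6 lost its call without mouse 1, 2 or 3, Tspan13 without mouse 1 or 3 and among pairs alone, and Fxyd3 without mouse 1. Among larger clumps alone Smim6, Tspan13 and Slc12a8 lost theirs.

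Of 7 stem cell genes and 32 cell cycle genes tested, 0 passed in edgeR without the block, and the medians were -0.28 and 0.064. Mki67, the proliferation antigen, had 33.7, 63.2, 69.9, 164 and 0 CPM in goblet clumps of mice 1 to 5 and 34.6, 54.2, 36.4, 183 and 40.2 CPM in goblet-poor ones. These values overlap, with mouse 4 highest in both (0.060 ± 0.57, adjusted p = 1.0), and the sign turned in several alternatives. Stmn1, a microtubule regulator of dividing cells, had 0 to 86.0 CPM against 50.3 to 135 CPM, was lower in 5 of 5 mice and passed with the block (-0.75 ± 0.20, adjusted p = 0.0329). Axin2, a Wnt target, had 0 to 23.3 CPM against 10.5 to 38.9 CPM and did not pass (-0.85 ± 0.43, and -1.06 ± 0.30 at adjusted p = 0.0767 with the block). Lgr5, the stem cell receptor, was below the filter with 28 UMIs in goblet and 144 in goblet-poor clumps, or 8.65 and 15.9 CPM (-1.41 ± 0.57 without the filter, adjusted p = 0.922). The summed cell cycle genes lay at 4343 and 4384 CPM in mouse 4 and between 1488 and 2197 CPM in the other mice, lower in goblet clumps in 4 of 5 mice. The summed stem cell genes were 261, 253, 265, 499 and 172 CPM in goblet and 258, 269, 400, 676 and 302 CPM in goblet-poor clumps of mice 1 to 5, also lower in 4 of 5.

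Of the Notch and crypt signalling list, 7 of 26 genes were tested and 0 passed in edgeR, also with the block. Hes1, the main Notch target of the crypt, had 12.6 to 47.8 CPM in goblet and 21.0 to 66.7 CPM in goblet-poor clumps, lower in 4 of 5 mice (-0.11 ± 0.45). Hes6, a target of Atoh1 type factors, had 12.6 to 50.5 CPM against 10.1 to 33.5 CPM (0.45 ± 0.37). Dll1, the Notch ligand of early secretory cells, had 40 UMIs in goblet and 28 in goblet-poor clumps, 12.4 and 3.1 CPM. Without the filter its difference was 1.99 ± 0.61 (adjusted p = 0.47).

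Of 14 tested Paneth cell genes other than Lyz1, which the rule limited, 13 had a log2 difference above 0 (45.9% of all genes tested did), with a median of 0.54. Mmp7, the protease that activates alpha-defensins in Paneth cells, was the 1 gene that rose (0.346% of all genes tested), and 6 rose with the replicate block (1.22% of all genes tested). Mmp7 had 88.5, 88.4, 67.0, 69.7 and 62.6 CPM in goblet clumps of mice 1 to 5 and 1.14, 0, 3.31, 8.65 and 0 CPM in goblet-poor ones, with no overlap (4.11 ± 0.53, adjusted p = 0.000935). Defa24, an alpha-defensin, had 742, 606, 478, 789 and 298 CPM against 201, 10.5, 121, 693 and 70.4 CPM (1.78 ± 0.28, adjusted p = 1.24e-05 with the block, 1.0 without it). Defa17 had 75.8 to 453 CPM against 1.51 to 311 CPM (adjusted p = 1.93e-06 with the block). Itln1, a lectin of Paneth and goblet cells, had 63.2 to 187 CPM against 1.51 to 85.0 CPM (adjusted p = 8.73e-06 with the block). Defa21 went the other way in level, with 0 to 72.8 CPM against 4.52 to 102 CPM, higher in 2 of 5 mice (-0.087 ± 0.62, adjusted p = 1.0). Defensin genes are near copies of each other, so reads may be split between them. The summed Paneth list was higher in 5 of 5 mice, at 1213 to 3048 CPM against 51.2 to 2684 CPM, and Lyz1 itself was at 0 to 67.3 CPM in members and 3.01 to 101 CPM in goblet-poor wells, per all UMIs. With goblet-poor wells limited to at most 2 Lyz1 UMIs as well, 18 genes were called.

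**Figure D4:**
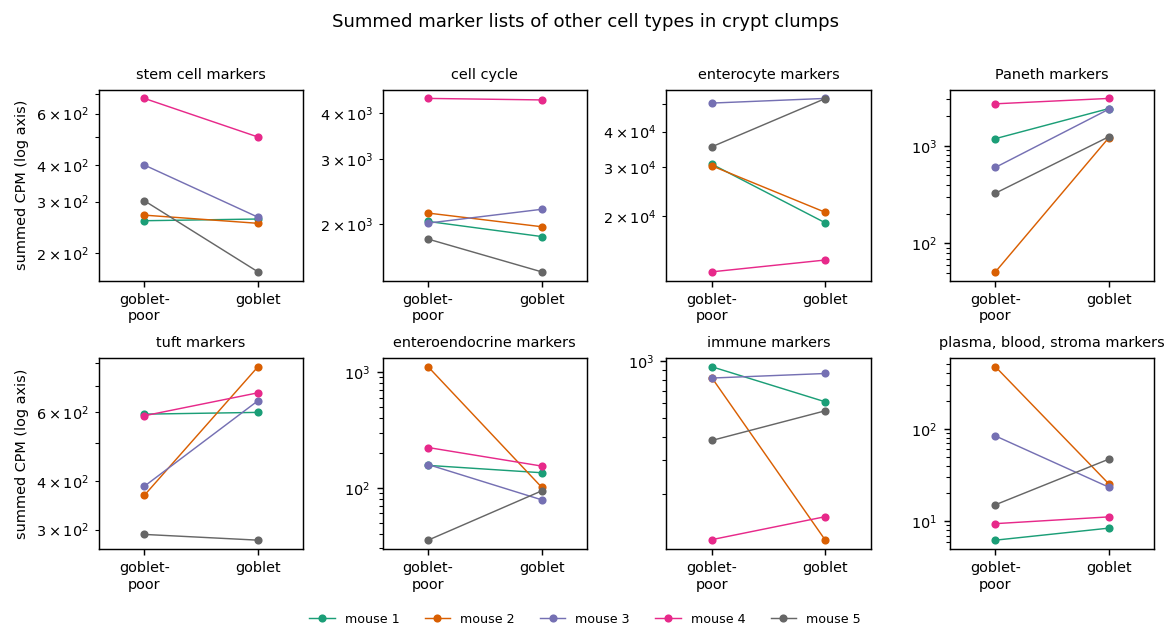
Summed CPM of the marker lists of other cell types in goblet-poor and goblet crypt clumps, log axes that differ between panels, with 1 line per mouse (n = 5). The Paneth list was higher in goblet clumps in all 5 mice, the enterocyte list in 3 of 5.

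The summed enterocyte list was 14020 to 52430 CPM in goblet and 12730 to 50470 CPM in goblet-poor clumps, higher in 3 of 5 mice, with a median log2 difference of -0.14 over 37 tested genes. Anpep, an enterocyte peptidase, had 240 to 964 CPM against 244 to 1150 CPM and passed with the block as lower (-0.65 ± 0.16, adjusted p = 0.0134), as did Fabp6, a bile acid binding protein (-0.89 ± 0.19, adjusted p = 0.00421), whereas Apoc2 was higher with the block. Of 3 tested tuft genes Krt18, a keratin that other epithelial cells also make, passed with the block, with 110 to 619 CPM against 40.2 to 223 CPM (1.13 ± 0.16, adjusted p = 3.47e-06), while the tuft marker Dclk1 had 1 UMI in goblet and 45 in goblet-poor clumps. Secretin (Sct) was the single tested enteroendocrine gene, with 29.5 to 63.2 CPM against 0 to 24.1 CPM (1.83 ± 0.30, adjusted p = 3.47e-05 with the block, 0.247 without it), and Chga had 19 UMIs against 132. The summed tuft list lay at 282 to 783 CPM and 292 to 592 CPM, higher in goblet clumps in 4 of 5 mice. The enteroendocrine list lay at 78.7 to 154 CPM and 35.2 to 1115 CPM, lower in 4 of 5 mice, with the 1115 CPM in mouse 2 and at most 223 CPM in the others. The immune list lay at 114 to 863 CPM and 114 to 936 CPM, and the plasma, blood and stromal list at 8.43 to 47.0 CPM and 6.25 to 468 CPM, each higher in 3 of 5 mice. Their part in the results was not tested.

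Wells with a marker share between both limits and at most 2 Lyz1 UMIs (1114 wells) were a group that no test used. For 18 of the 19 called genes the mean of these wells over mice lay between those of the goblet-poor wells and the members. By mouse they were above the goblet-poor wells in all 5 mice for 9 genes, and below the members in all 5 for 16. The summed cell cycle list did not lie between, at 2482, 4025 and 2370 CPM in goblet-poor, intermediate and goblet clumps. The summed Paneth list did, at 969, 1309 and 2054 CPM. Agr2 stood at 22.8 ± 21.6, 286 ± 110 and 2257 ± 700 CPM (SD, n = 5) in goblet-poor, intermediate and goblet clumps, and Guca2a at 81.2 ± 42.8, 140 ± 89.7 and 782 ± 362 CPM. Klf4 was the exception, with 31.7 ± 7.80, 29.5 ± 30.3 and 124 ± 63.7 CPM. Since the 3 groups are cut from 1 marker scale, this order is a description.

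The single cells allowed the same genes to be looked at without attached neighbours. Whether their mice are other animals than those of the clumps is not given, so they are not treated as independent of the clumps. There, 168 cells with a marker share of at least 2% (42, 76, 42 and 8 in mice 1 to 4) were compared with 672 cells under 0.05%. All had apolipoproteins under 0.5% of UMIs, a limit that does not place a single cell without attached enterocytes in the crypt. Of 1617 genes tested 258 were higher and 173 lower (26.7% called, edgeR quasi-likelihood test). Without mouse 2 the count was 220. The goblet-poor cells were not alike between mice. Their summed enteroendocrine list was 6267, 26470, 817 and 542 CPM in mice 1 to 4, against 150 to 500 CPM in the goblet cells, and their tuft list 2039, 6529, 361 and 288 CPM against 1205 to 1521 CPM. Plasma, blood and stromal genes summed to 13710 to 49230 CPM in goblet-poor and 0 to 1391 CPM in goblet cells. The study sorted part of its cells on CD24 to enrich enteroendocrine and tuft cells, and CD24 stands in the descriptions of 3 of 8 plates of mouse 1 and 5 of 16 of mouse 2. These plates held 0 of the goblet cells and 126 of the goblet-poor ones. Without them, an alternative chosen after seeing the data, 310 of 1487 genes were called (197 higher, 113 lower) and 13 of the 17 genes tested were higher. Of the 19 genes of the crypt clumps 17 were tested in the cells and 15 of them were higher there (88.2%, against 16% of all genes tested), which is 5.81% of the 258. Of the 67 genes higher with the replicate block, 52 were tested and 40 were higher in the cells (76.9%). The other way round, 205 of the genes higher in goblet cells were tested in the clumps. Their median log2 difference was 1.93 in the cells and 0.25 in the clumps, and 158 were above 0 in the clumps. These genes were chosen by their difference in the cells, and the marker limits differ (2% and 0.5%), so the 2 medians are not like for like. Of all 1543 genes tested in both, 699 were above 0 in the clumps, with a median of -0.019.

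For 14 of the 17 genes the log2 difference was larger in the cells, chosen at a marker share of 2%, than in the clumps, chosen at 0.5%. For 9530053A07Rik the log2 difference was 10.0 ± 0.82 in cells and 7.47 ± 0.50 in clumps, for Guca2a 5.08 ± 0.57 and 3.27 ± 0.37 and for Wars 4.82 ± 0.62 and 2.00 ± 0.33. Gcnt3, not called in the clumps without the block, was at 5.71 ± 0.60 and 2.59 ± 0.68. Agr2 differed by less than its errors, at 6.87 ± 0.85 and 6.49 ± 0.59. Selm and Atp2a3 were tested in the cells and did not pass there, at 0.86 ± 0.75 (adjusted p = 0.379) and 0.42 ± 0.83 (adjusted p = 0.702), against 3.83 ± 0.39 and 2.08 ± 0.40 in the clumps. Selm had 207, 83.3, 235 and 185 CPM in goblet cells of mice 1 to 4 and 44.0, 209, 10.3 and 16.9 CPM in goblet-poor cells, higher in all mice but mouse 2. Atp2a3 had 290, 275, 150 and 371 CPM against 126, 356, 16.8 and 10.2 CPM, again higher in all mice but mouse 2. Sct was below 0 in the cells (-2.68 ± 1.06, adjusted p = 0.0717) and above 0 in the clumps. With the mouse as a replicate block in edgeR, Sct passed as lower in the cells (-1.78, adjusted p = 0.0283). It had 166, 325, 139 and 185 CPM in goblet cells and 1253, 1686, 74.8 and 16.9 CPM in goblet-poor cells, so it was lower in mice 1 and 2 and higher in mice 3 and 4. Without the plates that name CD24 the log2 differences were 0.95 ± 0.82 for Selm, 0.33 ± 0.93 for Atp2a3 and -2.16 ± 1.14 for Sct. Klf4 (1.98 ± 0.80, adjusted p = 0.102) and Txndc5 (1.98 ± 0.77, adjusted p = 0.0918) then no longer passed. With all plates their log2 differences were 2.52 ± 0.60 and 1.95 ± 0.68. The part of the other cell types in these differences was not tested further. Of the enterocyte genes, 17 of 28 tested were lower in goblet cells, against 10.7% of all genes tested there. Their median was -1.66 in the cells (-0.153 over all genes tested there) and -0.14 in the clumps. Whether a gene's difference differs between cells and clumps was not tested, since the tables were scaled apart.

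**Figure D5:**
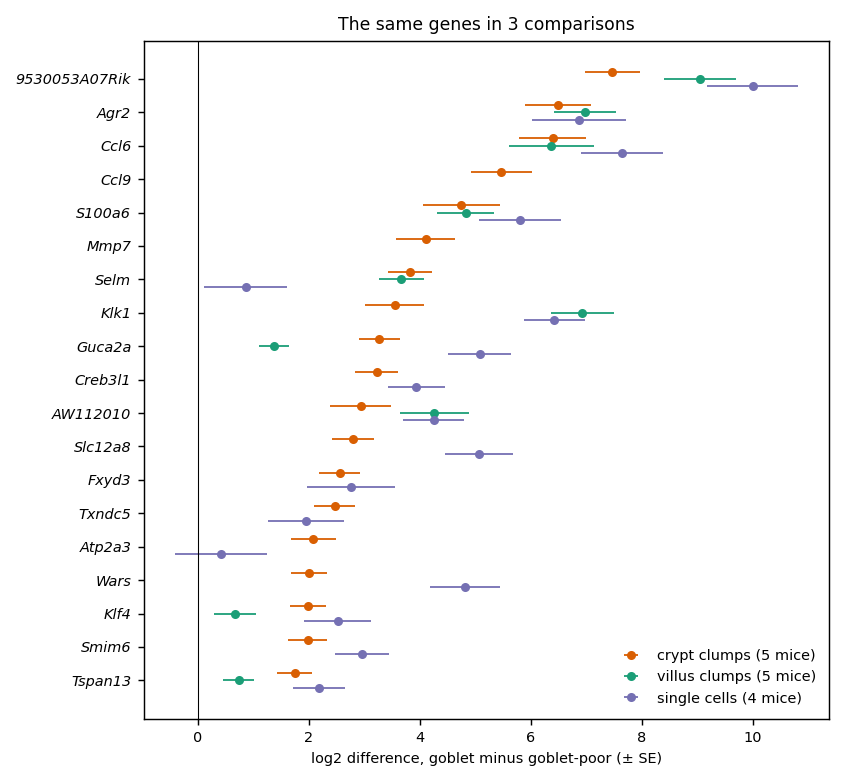
Log2 difference (horizontal axis, ± SE) between goblet and goblet-poor samples for the 19 genes called in crypt clumps, in crypt clumps, in villus clumps and in single cells. Genes without a point in a comparison were below its filter on low counts, and Guca2a was at 3.27 in the crypt and 1.38 in the villus clumps.

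The villus clumps of the same mice were compared in the same way. Among villus-like clumps (apolipoproteins at 0.5% or more) 312 wells met the goblet rule and 1527 were goblet-poor. In them 11 of 2477 genes were higher and 0 lower (0.444% called), 8 of the 11 being called in the crypt too, and all 10 of the crypt genes tested there were above 0, as were 47.0% of all 2477 genes. The interaction, goblet difference in crypt minus goblet difference in villus, passed for 0 of 4683 genes in edgeR (66 at an unadjusted p under 0.05), and for 4 with the mouse as a replicate block (0.0854% called, 2 higher and 2 lower in the crypt, 0.0427% each). Scaling by DESeq2 size factors in place of TMM moved the median of the interaction from 0.11 to -0.032.

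Guca2a was one of the 4. In the villus it had 870 ± 113 CPM in goblet and 341 ± 158 CPM in goblet-poor clumps, in the crypt 782 ± 362 and 81.2 ± 42.8 CPM (SD, n = 5). The difference was 1.38 ± 0.27 in the villus and 3.27 ± 0.37 in the crypt (interaction 2.11 ± 0.33, adjusted p = 0.00191 with the block, 0.228 without). Tspan1, a tetraspanin, went the other way, with 83.9 ± 24.2 and 6.17 ± 5.48 CPM in the villus and 64.8 ± 30.2 and 37.7 ± 10.1 CPM in the crypt (interaction -2.48 ± 0.42, adjusted p = 0.00341 with the block). The remaining genes were Enpp3, an ectonucleotidase, and Kcnk1, a potassium channel. Klk1 had 232 ± 72.0 CPM in villus and 128 ± 50.03 CPM in crypt goblet clumps, and its interaction of -3.23 ± 0.77 did not pass with the block (adjusted p = 0.117).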

How the data were processed

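The study sequenced polyadenylated RNA of sorted clumps and single cells from mouse jejunum by MARS-seq 2.0, in which each well has its own barcode. Per the labels and the study's methods, the authors demultiplexed reads with bcl2fastq 2.15.0.4, aligned them to GRCm38 with STAR and counted molecules with zUMIs, and deposited UMI counts per gene and well as 1 table for clumps and 1 for single cells. They subtracted background from empty wells in their own analysis. That step is not in the deposited counts and was not repeated, so free RNA remains in all wells.

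Wells were selected by the marker limits given above and their UMIs were summed per mouse and group (at least 5 wells per sum). The 10 rule genes were removed from tables and totals. edgeR 4.0.16 (filterByExpr, TMM, quasi-likelihood, Benjamini-Hochberg, threshold 0.05) was the main test, without a mouse term. The SE is the log2 difference divided by the root of F. DESeq2 1.42.0, another scaling, no filter, a mouse term, leaving out single mice and other limits on wells were alternatives, and 2 alternatives (members with 10 or more marker UMIs, single cells without plates whose description names CD24) were added after the data were seen. Within the clumps and within the cells, groups with the same number carry the same mouse label. Their deviations from the group means correlated at r = 0.154 to 0.721 in all pairs. Counts with the mouse term are therefore given too, with paired values for a part of the genes whose call they change. A planned permutation test of the share of members in larger clumps and pairs is not reported, because the rule sets that share. Scripts were tested on simulated data. Clumps are multi-cell by design and no doublet caller was run, and single cells kept had 200 to 7000 UMIs, 150 to 1500 genes, at most 40% mitochondrial UMIs and no UMI of 6 immune genes.

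Named genes were the called genes with a shared direction in all mice and at least 20 CPM in the higher group (up to 20 up and 10 down), up to 4 per list and direction with the smallest adjusted p plus those needed to describe a list, and 8 genes named always. Other genes were chosen after their values were seen. The members and the 16 gene lists were chosen with earlier results of these data known. Of 516 list genes, 11 were not analysed here. The precision is limited by counting error in low sums (64919 UMIs for the smallest). Mouse 6 (4 plates) was not used.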

Additional observations from a re-analysis of the deposited data

Results flagged for a closer look

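The goblet difference between crypt and villus clumps differed for 4 genes by the interaction term with the mouse as a replicate block. On the log2 scale the crypt minus villus value was 3.93 for Enpp3 (adjusted p = 0.00928), 2.11 for Guca2a (adjusted p = 0.00191), -2.48 for Tspan1 (adjusted p = 0.00341) and -2.86 for Kcnk1 (adjusted p = 0.0199). Without the block 0 genes passed. Enpp3 had 75.1 ± 26.4 CPM in goblet and 143 ± 150 CPM in goblet-poor villus clumps, and 15.1 ± 13.1 and 1.43 ± 1.61 CPM in the crypt (SD, n = 5).

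The median mitochondrial share of the members in mouse 5, 20.0%, stood apart from the other 4 mice by Dixon's ratio. It was the 1 value apart in 44 groups examined, where chance gives about 1 in 20.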

How the results depend on the processing

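The count of 19 genes in crypt clumps became 61 without the filter on low counts, 70 with the mouse as a replicate block and 7 with wells of 1000 to 4000 UMIs, where 1487 genes were tested, and ranged from 11 to 46 with each mouse left out. All of these calls were higher in goblet clumps except 3 with the block. The other alternatives gave 16 to 26 calls. For the 19 genes, 265 of 300 values over all alternatives kept the call and direction, 35 lost the call and 0 changed sign, and 10 genes lost it at least once. Single cells gave 431 genes (258 higher, 173 lower), 999 without the filter (238 and 761), 602 with the replicate block (314 and 288), 630 at a marker share of 5% (298 and 332), 310 without plates that name CD24 and 220 to 402 with a mouse left out. The interaction of crypt and villus gave 0 genes, 1 without the filter and 4 with the replicate block. The share of members in larger clumps minus pairs, a description, was 4.47 points and lay between 2.30 and 6.97 over the alternatives, 6.01 with the mouse as a replicate block. Sox9 and Mki67 never passed but changed sign: Sox9 was at 0.0068 against goblet-poor wells with at most 2 Lyz1 UMIs, at 0.00645 with members of 10 or more marker UMIs (an alternative added after the data were seen) and from -0.20 to 0.079 with a mouse left out. Mki67 was at -0.0027 without the filter, -0.0036 with the block, -0.059 in DESeq2, -0.32 in larger clumps, -0.14 at a marker share of 1% and from -0.11 to 0.24 with a mouse left out. In pairs alone it was at 0.82, the other way from larger clumps. The causes were not tested. Depth limits factors such as Atoh1, at 85 UMIs in all members.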

Other observations

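With the mouse as a replicate block, 48 genes were higher that edgeR did not call without it. Of those in no list, 3 are described here. Tmsb10, an actin-binding peptide, had 249 to 766 CPM in goblet and 121 to 268 CPM in goblet-poor clumps (1.19 ± 0.14, adjusted p = 3.37e-08 with the block, 0.103 without it, passing in 5 of 18 settings). Rnase4 had 78.3 to 202 CPM against 28.6 to 55.3 CPM and the groups did not overlap (1.52 ± 0.20, adjusted p = 5.25e-07 with the block, 0.0569 without it, passing in 6 of 18 settings). Lgals2, an abundant galectin, had 2834 to 6745 CPM against 1745 to 3579 CPM (0.69 ± 0.12, adjusted p = 7.22e-05 with the block). In single cells the 3 genes were higher in goblet cells too, by 2.73, 3.95 and 2.71 on the log2 scale. These genes were chosen after their values were seen.

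Without the filter on low counts, Tpsg1, a membrane tryptase, had 121 UMIs in goblet and 4 in goblet-poor clumps (6.47 ± 0.67, adjusted p = 3.11e-07), Pla2g10, a secreted phospholipase, 56 against 3 UMIs (5.70 ± 0.77, adjusted p = 3.24e-05), and Hepacam2, an adhesion protein, 185 against 50 UMIs (3.39 ± 0.48, adjusted p = 6.97e-05).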
